A study of Mus musculus with 2 samples.

Results

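Dendritic epidermal T cells (DETCs), the γδ T cells that live between the keratinocytes of mouse epidermis, differed widely in their RNA of immediate early genes, and the cells described here are those with the least of it. Immediate early genes such as Fos, Jun and Egr1 are transcribed within minutes of a stimulus, without new protein being made, and encode transcription factors and the feedback proteins that end the response. DETCs carry a Vγ5Vδ1 receptor, are shaped by the keratinocyte protein Skint1, and are known for epithelial growth factors, for interleukin-13 and for cytotoxicity towards stressed cells. Of 10203 barcodes kept as cells in 2 single-cell libraries, 8153 passed a gate for DETCs and 2157 of these were immediate early low, 868 from the isotype library and 1289 from the anti-Skint1 library.

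The members were selected on their own counts of unique molecular identifiers (UMIs, each marking 1 mRNA molecule). A barcode entered the gate with 500 to 2500 genes, at most 12% mitochondrial UMIs, at least 2000 UMIs, at least 3 UMIs of Trdc (the δ constant region), at least 3 of Cd3d, Cd3e and Cd3g together, and 0 of Trac, Cd4, Cd8a and Cd8b1. It was called low when Fos, Fosb, Jun, Junb, Egr1, Ier2, Dusp1, Nr4a1, Zfp36, Btg2, Klf6 and Atf3 together made up at most 0.4% of its UMIs. DETCs between 0.4% and 1.2%, called graded here, served for comparison and numbered 1124 (isotype) and 1527 (anti-Skint1). Because the classes were cut from the readout, every low against graded value below is a description without a test.

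Both libraries came from ear epidermis of female FVB/NJ mice, wild type and 8 weeks old, sorted as live CD45+ cells lacking EpCAM and MHC-II. They were taken 7 d after an intradermal injection of isotype control antibody or of antibody to Skint1. There was 1 library per treatment, so treatment and library cannot be told apart, cells are not replicates, and no p-value is given. The tissue of both was digested in warm trypsin and sorted before RNA was captured; the part of this handling in the immediate early level was not tested. No barcode was low in both libraries, although 8 barcodes of at least 500 genes occurred in both and 1 of these was a low DETC of the anti-Skint1 library.

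The immediate early share had no gap at the limit. Low DETCs made up 25.5% of gated DETCs in the isotype library (95% exact Clopper-Pearson interval 24.0 to 27.0%) and 27.2% in the anti-Skint1 library (25.9 to 28.5%). Intervals here and below cover counting error only. In 0.1% bins the isotype cells went from 8.04% in the lowest bin to 3.49% at 0.5 to 0.6% and back to 4.93% at 0.9 to 1.0%, a second hump above the limit. The anti-Skint1 cells were most frequent at 0.1 to 0.2%, with 7.23%, and made up 4.15% at 0.5 to 0.6% and 3.61% at 0.9 to 1.0%. The limit of 0.4% lay on the slope in both, and 35 isotype and 38 anti-Skint1 low cells held no UMI of the 12 genes.

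**Figure D1:**
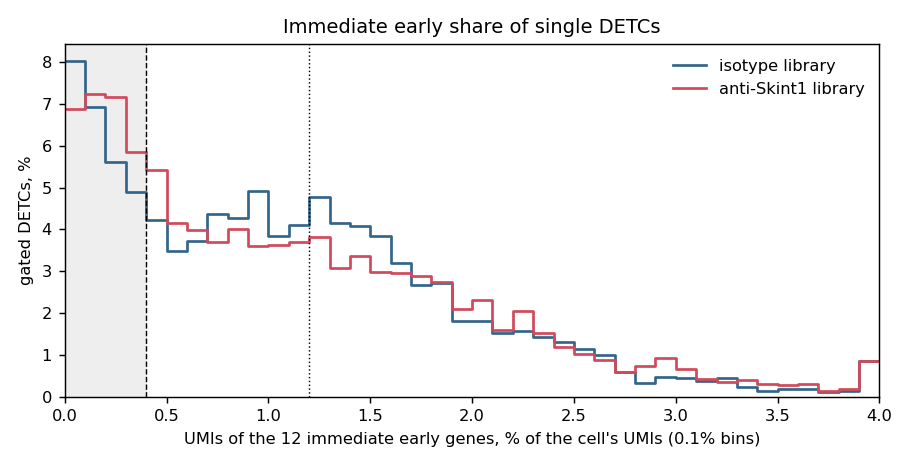
Share of gated DETCs (y axis, %) by the percentage of their UMIs that came from the 12 immediate early genes (x axis, 0.1% bins, the last bin holding all cells above it), 1 line per library. The shaded range up to 0.4% holds the 868 and 1289 low DETCs, the dashed line marks 0.4% and the dotted line 1.2%, and neither line sits at a gap.

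Levels are given as counts per 1000000 UMIs (CPM), from UMIs summed over the cells of a class and library, with 95% exact Poisson intervals. In the isotype library the 12 genes together were at 1802 CPM in low and 8105 CPM in graded DETCs, and in the anti-Skint1 library at 1949 and 7770 CPM. Low DETCs held 3680074 and 5174810 UMIs in the isotype and anti-Skint1 libraries. Their depth was like that of graded DETCs, with medians of 4021.5 and 3750 UMIs per low cell against 4168 and 3654 per graded cell. With each cell thinned to 2000 UMIs, the median number of genes detected was 1030 and 1006 in low cells and 989 and 977 in graded cells.

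The 12 genes that chose the members were uneven in how much RNA was left. Atf3, a stress-induced transcription factor, was nearest to absent, at 8.42 CPM in low against 145 CPM in graded isotype DETCs and 5.22 against 92.1 CPM in anti-Skint1 ones. Fos was at 305 against 2302 CPM and 337 against 2139 CPM, Dusp1, a phosphatase of MAP kinases, at 89.7 against 652 CPM and 82.5 against 635 CPM, and Nr4a1, which follows T cell receptor signals, at 25.5 against 181 CPM and 24.0 against 152 CPM. Btg2, an antiproliferative gene, and Klf6 kept the most relative to graded cells, with 527 against 1472 CPM and 551 against 1451 CPM for Btg2 and 150 against 420 CPM and 182 against 416 CPM for Klf6. These values follow from the selection and stand as a description only.

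The low cells were DETCs by the markers that the gate did not use. Trdv4, the Vδ1 segment, was at 965 CPM (isotype) and 801 CPM (anti-Skint1), and Tcrg-V5, the Vγ5 segment, at 73.4 and 79.0 CPM. All 3 mast cell markers were at 0 in both libraries. All 6 αβ T cell markers were at 0 in the anti-Skint1 library and summed to 1.36 CPM in the isotype library, but the gate itself required 0 UMIs of 4 of them. The 7 markers of dermal interleukin-17 γδ T cells summed to 41.8 and 41.2 CPM, the 5 of natural killer and innate lymphoid cells to 42.4 and 21.5 CPM, and the 6 of Langerhans and myeloid cells to 15.5 and 7.54 CPM. In isotype cells these sums were higher in low than graded DETCs, by log2 ratios of 0.60 (0.25 to 0.94), 0.57 (0.23 to 0.91) and 1.25 (0.599 to 1.92), whereas in anti-Skint1 cells the ratios were -0.27 (-0.53 to -0.01), -0.45 (-0.81 to -0.10) and -0.07 (-0.72 to 0.58). Without cells holding a marker of dermal interleukin-17 γδ T cells, 20 genes were at least 0.5 log2 higher and 159 lower in low than graded cells of both libraries. With these cells the counts were 15 and 158. The part of the natural killer, innate lymphoid, Langerhans and myeloid markers in the low over graded values was not tested. The 5 keratin genes were at 18.2 and 20.7 CPM in low DETCs against 937 and 1329 CPM in barcodes of 1 to 100 UMIs, which hold free RNA. If all keratin RNA were free RNA, 1.94% and 1.56% of the UMIs of low DETCs would be. Of the low cells, 5 (0.576%) and 6 (0.465%) were marked as doublets, against 67 (5.96%) and 95 (6.22%) of graded cells.

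The word resting was only partly met by the genes given for it. Of Adcy7, Cx3cr1, Themis, Ikzf2 and Tcf7, only Adcy7 was at least 0.5 log2 higher in low than in graded DETCs of both libraries. Adcy7 (ENSMUSG00000031659; GRCm38 chr8:88272403-88329962, plus strand), an adenylyl cyclase that makes cyclic AMP, was at 221 CPM in low against 126 CPM in graded isotype DETCs, or 0.82 as a log2 ratio (95% exact conditional binomial interval 0.66 to 0.97). In the anti-Skint1 library it was at 217 against 149 CPM, a log2 ratio of 0.54 (0.41 to 0.67). It ranked 6 and 21 of 2775 genes by this ratio.

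Cx3cr1, the fractalkine receptor, came next in the isotype library, with 184 against 131 CPM (0.49, 0.33 to 0.65). In anti-Skint1 cells it was at 209 against 167 CPM (0.32, 0.20 to 0.45), a ratio below that of Themis. Themis, a protein of the proximal T cell receptor pathway, was at 191 against 164 CPM (0.22) and at 221 against 171 CPM (0.37). Ikzf2, the transcription factor Helios, was at 136 against 120 CPM (0.19) and at 135 against 110 CPM (0.29). Tcf7, the transcription factor TCF-1 of naive and memory T cells, was at 234 against 202 CPM (0.21) and 234 against 216 CPM (0.12). Without cells of at least 2 UMIs of proliferation genes, the isotype ratio of Cx3cr1 was 0.030 and the anti-Skint1 ratio of Tcf7 was -0.135. The ratio of the median gene was 0.125 (isotype) and 0.104 (anti-Skint1), to which Ikzf2 lay nearest of the 5 in the isotype and Tcf7 in the anti-Skint1 library. The cells are therefore called immediate early low rather than resting.

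Adcy7 was lower in the 3 bins above the limit (0.4 to 0.8%, 0.8 to 1.2% and above) than in the 4 below it. In the isotype library it was at 238 CPM in cells below 0.1% immediate early UMIs, 226 CPM at 0.1 to 0.2%, 149 CPM at 0.4 to 0.8%, 105 CPM at 0.8 to 1.2% and 93.3 CPM above 1.2%. In the anti-Skint1 library the same bins had 228, 230, 175, 120 and 102 CPM. Within the low class itself, between 0 and 0.4%, the 4 bins of Adcy7 lay between 197 and 238 CPM in both libraries, with overlapping intervals. At the limit there was no step: cells at 0.35 to 0.4% had 165 and 227 CPM of Adcy7, and cells at 0.4 to 0.45% had 182 and 218 CPM.

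**Figure D2:**
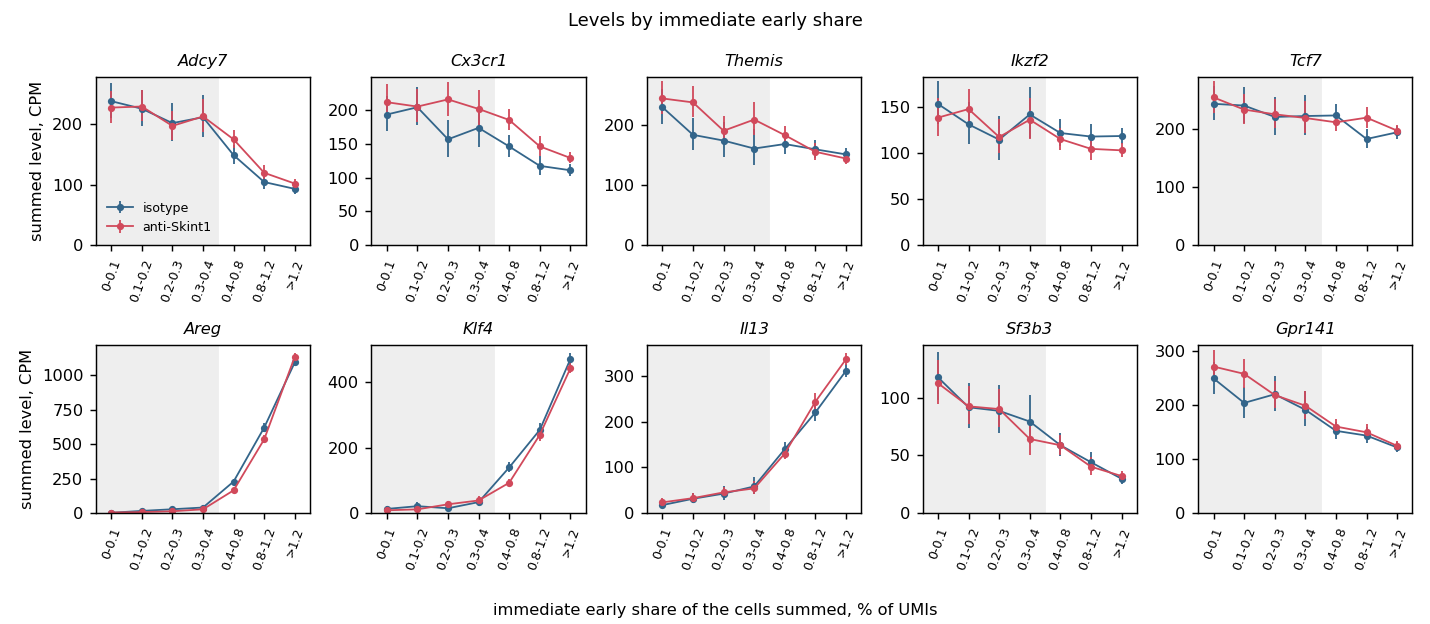
Summed level (y axis, CPM, with 95% exact Poisson intervals) of 10 genes in cells binned by immediate early share (x axis, % of UMIs), for the isotype and the anti-Skint1 library; the shaded bins are low DETCs. Adcy7 goes from 238 to 93.3 CPM and Areg from 4.52 to 1092 CPM from the lowest to the highest bin of the isotype library, whereas Tcf7 stays between 183 and 244 CPM.

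Few genes were higher in low DETCs and many were lower. Among 2775 genes with at least 50 CPM over low and graded cells of each library, leaving out genes of the sum and the gate, 15 (0.541%) were at least 0.5 log2 higher in both libraries and 158 (5.69%) at least 0.5 log2 lower in both. None of the gene lists described below held more than 1 of the 15. Sf3b3, a splicing factor subunit, led them with 96.2 against 51.1 CPM in isotype and 90.6 against 50.2 CPM in anti-Skint1 cells, log2 ratios of 0.91 (0.67 to 1.15) and 0.85 (0.64 to 1.07). Cnot1, the scaffold of the deadenylase complex, followed at 0.83 and 0.78, and Hnrnpr, an RNA-binding protein, had 0.73 and 0.55.

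The other genes with the highest ratios were Uqcc3 (0.67 and 0.68), Trgv2 (0.88 and 0.66), Ankrd44 (0.59 and 0.62), Csnk1g1 (0.75 and 0.57), Gpr141 (0.57 and 0.61), Rbck1 (0.56 and 0.65), Btbd7 (0.92 and 0.55) and Ccdc82 (0.62 and 0.54), with the isotype value first here and below. Gpr141, an orphan G protein-coupled receptor, had 219 and 238 CPM in low cells. Trgv2 is one of several similar γ chain segments, so reads may be split between copies, and its level is uncertain. Over all alternatives, of the 12 genes of highest ratio, Adcy7 included, only Sf3b3 and Uqcc3 stayed at or above 0.5 log2 in both libraries. The isotype ratio of Trgv2 was 0.197 without cells of at least 2 proliferation UMIs. With at most 5% mitochondrial UMIs, Ccdc82 was at 0.11 in the anti-Skint1 and Cnot1 at 0.37 in the isotype library. Counted against the median gene instead, 4 genes were at least 0.5 log2 higher and 193 at least 0.5 log2 lower, and Adcy7 in the anti-Skint1 library was then at 0.44.

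**Figure D3:**
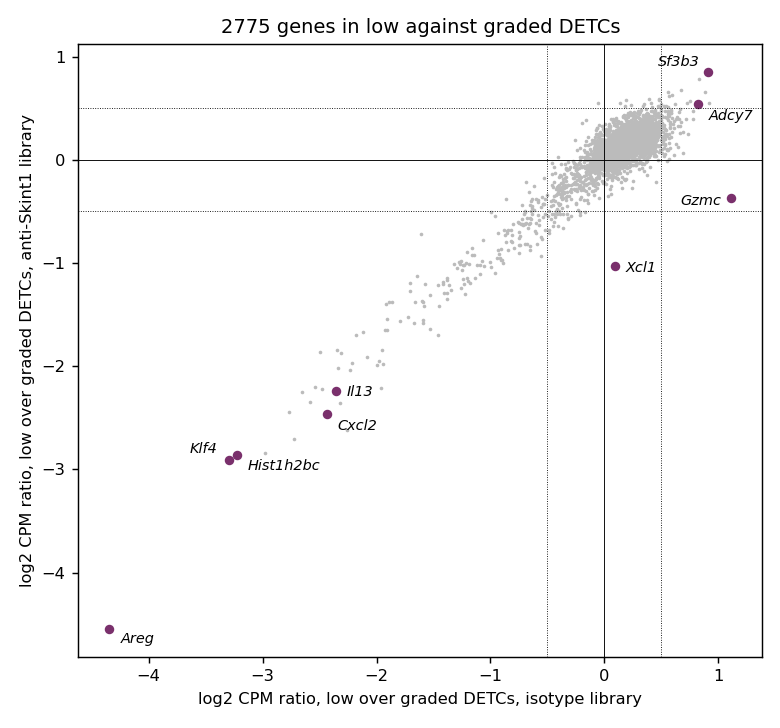
Log2 CPM ratio of low over graded DETCs in the isotype library (x axis) and the anti-Skint1 library (y axis), 1 point per gene, 2775 genes; dotted lines mark 0.5 log2. Named genes are in purple: Areg lies at -4.34 and -4.55, Sf3b3 at 0.91 and 0.85, and Gzmc (1.11 and -0.37) and Xcl1 (0.09 and -1.03) lie off the cloud, and Xcl1 was at -0.51 in the isotype library without its top cells and those of Gzmc.

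The deepest difference was in Areg, amphiregulin, an epidermal growth factor receptor ligand of tissue repair. Areg (ENSMUSG00000029378) lies on the plus strand of GRCm38 at chr5:91139599-91148432. Low isotype DETCs had 21.5 CPM of it against 436 CPM in graded ones (-4.34, -4.69 to -4.02), and low anti-Skint1 DETCs had 14.5 against 339 CPM (-4.55, -4.90 to -4.21). Without cells of at least 2 proliferation UMIs, the anti-Skint1 ratio was -2.78 for Areg and -4.75 for the chemokine gene Cxcl2. By the keratin estimate, free RNA would make up 5.37 and 4.35 CPM of Areg in low cells, whose part in the values was not taken off. Just inside the limit, in cells at 0.35 to 0.4%, Areg was at 57.5 and 23.9 CPM, from 22 and 12 UMIs. Just outside, at 0.4 to 0.45%, it was at 100.1 and 53.5 CPM, from 28 UMIs in each library. The intervals inside and outside overlapped in both libraries.

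Cytokines of the DETC response stood lower with it. Il13, interleukin-13, was at 35.6 against 182 CPM (-2.35) and 38.8 against 183 CPM (-2.24). Cxcl2, a neutrophil chemokine, had ratios of -2.44 and -2.46, Cxcl10 of -1.70 and -1.27, and Tnf of -0.75 and -0.90. Of 32 effector cytokine and chemokine genes, 9 had enough counts, and 5 of the 9, namely Areg, Il13, Cxcl2, Cxcl10 and Tnf, were at least 0.5 log2 lower in both libraries, against 5.69% of all genes tested. The list's median ratio was -0.75 and -1.03. Ltb, the membrane lymphotoxin, lay the other way, with 452 against 312 CPM (0.53) and 433 against 391 CPM (0.15).

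Immediate early and feedback genes that the sum had left out were low as well. Of 36 such genes 26 were tested, and 23 of the 26 were at least 0.5 log2 lower in both libraries and 0 higher, against 5.69% and 0.541% of all genes tested, with medians of -1.52 and -1.37. Klf4, a transcription factor that holds T cells out of cycle, was at 20.4 against 200 CPM (-3.29) and 21.5 against 161 CPM (-2.91). Nr4a2, an orphan nuclear receptor of the Nr4a1 family, had ratios of -2.32 and -2.35, and Dusp5, a phosphatase of ERK, of -2.25 and -2.62. The NF-κB inhibitors Nfkbia (-1.96 and -2.21) and Tnfaip3 (-2.09 and -1.91) and the G protein regulators Rgs1 (-1.91 and -1.65) and Rgs2 (-1.79 and -1.56) were in the same list. Cd69, which retains T cells in tissue, was at 266 against 492 CPM and 261 against 521 CPM.

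Other genes with the lowest ratios were Hilpda, a lipid droplet protein (-2.98 and -2.84), Vps37b (-2.73 and -2.71), the metallothionein Mt1 (-2.77 and -2.45), the transcription factor Cebpb (-2.59 and -2.35) and the kinase Pim3 (-2.65 and -2.25). Hk2, the glycolytic hexokinase, was at 134 against 503 CPM (-1.91) and 185 against 537 CPM (-1.54). Hist1h2bc was at 89.9 against 843 CPM (-3.23) and 98.7 against 719 CPM (-2.86). All 6 core and linker histone genes tested, of 67 looked for, were at least 0.5 log2 lower in both libraries, against 5.69% of all genes tested.

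Heat shock genes were lower alongside the immediate early genes. Together the 16 chaperone genes were at 6339 CPM in low against 13254 CPM in graded isotype DETCs (-1.06) and at 5848 against 10433 CPM in anti-Skint1 ones (-0.84). From the lowest bin to the cells above 1.2%, their level went from 4047 to 15931 CPM and from 4290 to 12709 CPM in these libraries. Of 11 tested, 8 were at least 0.5 log2 lower in both, against 5.69% of all genes tested, with Dnajb1 (-2.50 and -1.86), Hspa5 (-1.71 and -1.19), Hspa1a (-1.46 and -1.21) and Hspa1b (-1.41 and -1.29) the 4 lowest of the isotype cells. Hspa1a and Hspa1b are near-identical copies and their split is uncertain. Whether the immediate early and the heat shock RNA were made in the skin or during isolation of the cells was not tested.

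**Figure D4:**
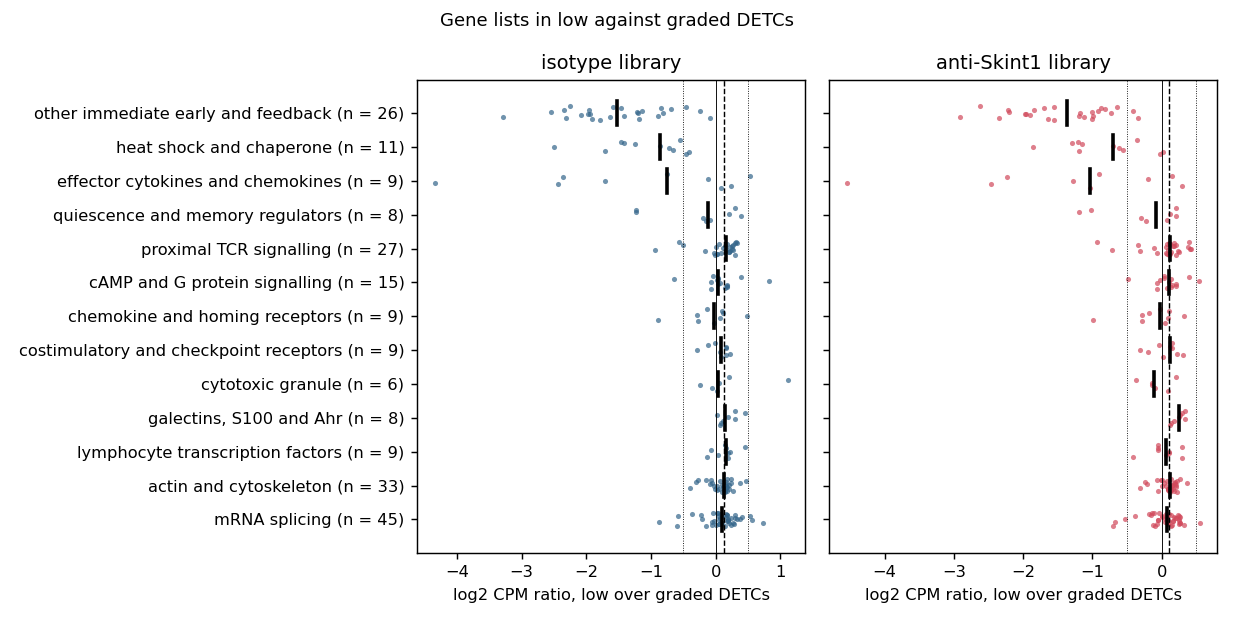
Log2 CPM ratio of low over graded DETCs for the tested members of 13 gene lists (points; black bar, list median) in the isotype library (left) and the anti-Skint1 library (right); dashed line, median of all genes tested, dotted lines, 0.5 log2. The other immediate early genes (medians -1.52 and -1.37) and chaperones (-0.85 and -0.70) lie to the left, and 10 of the 13 medians lie within 0.5 log2 of 0 in both libraries.

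The promoters of genes that were low together held known response elements only at times. RefSeq promoters, taken as the 250 bases before each start (GRCm38.p6), were searched on both strands for TGACGTCA, the full cyclic AMP response element, for TGAGTCA, an AP-1 site, and for the CArG box bound by serum response factor. Of the 158 genes lower in low DETCs, 122 had a promoter in the table, and TGACGTCA occurred in 7 (5.74%), against 3.72% of 2205 tested genes and 1.77% of all 27025 genes of the table. TGAGTCA occurred in 6 (4.92%), against 3.81% and 5.16%, and the CArG box in 1 (0.820%), against 1.63% and 1.62%. The 7 with TGACGTCA were Areg, Birc2, Errfi1, Ppp1r15a, Purb, Tra2a and Tubb2a. Among 10 of the 12 genes of the sum with a promoter there, Btg2 and Dusp1 held TGACGTCA and Zfp36 a CArG box. The 250 upstream bases of 4 genes low in these cells are printed 5′ to 3′ on the gene's strand with these matches in capitals, to show how close to the start they lie. In Areg (chr5:91139349-91139598, plus strand) the element began 61 bases before the start, in Btg2 (chr1:134079156-134079405, minus strand) 166 bases and in Dusp1 (chr17:26508473-26508722, minus strand) 143 bases before it. Dusp5 (chr19:53528895-53529144, plus strand), the only one of the 122 searched with a CArG box, held 2 of them end to end without overlap, 82 and 72 bases before the start.
Areg: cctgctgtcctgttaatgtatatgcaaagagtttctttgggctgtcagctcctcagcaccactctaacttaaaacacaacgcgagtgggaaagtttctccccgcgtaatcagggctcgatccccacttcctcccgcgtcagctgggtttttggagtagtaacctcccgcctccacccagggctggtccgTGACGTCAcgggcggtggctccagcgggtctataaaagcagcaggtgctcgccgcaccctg
Btg2: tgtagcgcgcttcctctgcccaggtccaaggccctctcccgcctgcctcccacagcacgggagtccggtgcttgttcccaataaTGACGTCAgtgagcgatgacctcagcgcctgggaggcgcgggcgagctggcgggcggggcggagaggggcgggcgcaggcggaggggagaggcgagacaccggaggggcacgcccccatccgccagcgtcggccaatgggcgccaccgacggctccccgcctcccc
Dusp1: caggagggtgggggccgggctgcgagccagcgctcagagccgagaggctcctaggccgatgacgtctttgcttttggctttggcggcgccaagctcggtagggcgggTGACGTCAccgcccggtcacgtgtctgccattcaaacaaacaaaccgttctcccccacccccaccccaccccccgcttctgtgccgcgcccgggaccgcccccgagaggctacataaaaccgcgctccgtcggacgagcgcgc
Dusp5: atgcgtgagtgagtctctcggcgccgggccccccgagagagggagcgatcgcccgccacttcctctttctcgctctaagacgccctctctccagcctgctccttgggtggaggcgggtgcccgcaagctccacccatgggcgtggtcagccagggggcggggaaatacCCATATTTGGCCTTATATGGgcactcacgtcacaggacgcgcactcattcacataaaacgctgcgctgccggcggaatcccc
Such matches are a description of letters and were not tested for binding.

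Of 23 quiescence genes 8 were tested, 0 were at least 0.5 log2 higher and 2 were lower, against 0.541% and 5.69% of all genes tested, a count too small to set the list apart, and the medians were -0.12 and -0.08. The lower pair were Tob1 (57.3 against 135 CPM and 58.9 against 135 CPM) and Tob2 (-1.24 and -1.02), which encode antiproliferative proteins. Pdcd4, a translation inhibitor, had 0.30 and 0.21, and Ets1 had 0.39 and 0.21. Klf2, a regulator of T cell quiescence and exit from tissue, was below the 50 CPM minimum with 8.15 against 23.4 CPM and 10.4 against 28.0 CPM. S1pr1, a receptor of circulating T cells, had 0 UMIs in low DETCs of both libraries, where 3 counts would be 0.815 and 0.580 CPM.

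Low DETCs also held RNA of genes of dividing cells. Mki67, Top2a, Cdk1, Ccnb2 and Birc5, called the 5 mitosis genes here, mark cycling cells. They summed to 88.6 CPM (79.2 to 98.7) in low against 49.7 CPM in graded isotype DETCs. In anti-Skint1 DETCs the sums were 73.2 CPM (66.1 to 81.0) and 54.5 CPM. These UMIs sat in few cells, since the 10 cells with most of them held 54.3% (isotype) and 43.8% (anti-Skint1). After thinning, 6.34% of low and 4.89% of graded isotype cells held a UMI of the 5 genes. In anti-Skint1 cells the shares were 5.97% and 5.30%, and the intervals of low and graded cells overlapped in both libraries. In the barcodes of free RNA these genes were at 211 and 207 CPM. By the keratin estimate, free RNA would make up 1.94% and 1.56% of the UMIs of low DETCs. The whole list of 24 proliferation genes, from which the 5 were picked after their values were seen, lay the other way, at 1467 against 1582 CPM (-0.11) and 1430 against 1510 CPM (-0.08), and of its 6 tested genes only Cenpa (-1.57 and -1.21) was at least 0.5 log2 lower in both, against 5.69% of all genes tested. After thinning, cells with at least 2 UMIs of that list were 55.6% of low against 64.7% of graded isotype cells and 55.4% against 63.1% of anti-Skint1 cells. Without every cell that had a UMI of these 5 genes, 759 and 1140 low cells remained, and 19 genes were at least 0.5 log2 higher and 162 lower than in graded cells.

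Genes of T cell identity and signalling had counts near those of all genes tested, of which 0.541% were higher and 5.69% lower. Of 41 proximal T cell receptor genes 27 were tested; Malt1 (-0.56 and -0.93) and the calcium channel Orai1 (-0.93 and -0.71) were lower, none passed 0.5 log2 upwards in both, and the medians were 0.16 and 0.12. Lck, the first kinase of the pathway, was at 387 against 332 CPM and 381 against 324 CPM. Of 15 cyclic AMP and G protein genes tested only Adcy7 passed 0.5 log2, and Prkacb, a catalytic subunit of protein kinase A, had 0.18 and 0.20. Of 6 cytotoxic granule genes tested none passed 0.5 log2 in the same direction in both libraries, and the medians were 0.04 and -0.11, with Prf1, perforin, at 594 against 621 CPM and 586 against 624 CPM, and Nkg7 at 2474 against 2427 CPM and 2785 against 2603 CPM.

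Of 9 chemokine and homing receptors tested, Cd69 was at least 0.5 log2 lower in both libraries (-0.89 and -0.995) and none was higher, and the list's medians were -0.03 and -0.03. Itgae, the integrin CD103 that binds E-cadherin, had 0.10 and 0.11, and Cxcr6 had -0.29 and -0.29. Of 9 costimulatory and checkpoint receptors tested none passed 0.5 log2 in both libraries. The 8 galectin, S100 and Ahr genes tested all had ratios above 0 in both libraries, as had 1789 of all 2775 genes tested. Their medians were 0.15 and 0.25, against 0.125 and 0.104 for all genes tested. Ahr, the aryl hydrocarbon receptor that keeps DETCs in skin, had 0.45 and 0.30, and Lgals1 had 0.30 and 0.34. Of 33 actin and cytoskeleton genes and 80 cytosolic ribosomal protein genes none passed 0.5 log2 in either direction in both libraries. Among 45 splicing genes tested, a list that does not hold Sf3b3, Hnrnpr was higher and Tra2a and Clk1 lower, against 0.541% and 5.69% of all genes tested.

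Of 27 lymphocyte transcription factor genes 9 were tested and none passed 0.5 log2 in both libraries; Runx3 had 0.19 and 0.11 and Gata3 -0.14 and -0.42. Of 20 interferon-stimulated genes only 2 had enough counts, of which Cxcl10 was lower, against 5.69% of all genes tested. Among 12 γ and δ receptor genes, a list chosen after values were seen, 6 were tested, with Trgv2 at least 0.5 log2 higher, against 0.541% of all genes tested, and medians of 0.32 and 0.29 against 0.125 and 0.104 for all genes. The 13 mitochondrially encoded genes had medians of 0.02 and -0.04 and none passed 0.5 log2.

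The low class was uneven inside. By the variance over the mean of thinned counts, Gzmc, granzyme C, varied most from cell to cell, and the 10 cells with most Gzmc held 73.2% (isotype) and 91.8% (anti-Skint1) of its UMIs. Next came Malat1, Gm42418, Ctla2a, Stmn1, Hspa1b, Actb, Hspa1a, Tmsb4x and Hmgb2. Stmn1, a microtubule protein of dividing cells, had 50.3% and 48.6% of its UMIs in 10 cells, whereas the top 10 cells for Adcy7 held 5.77% and 4.27%. Cells with a UMI of Trgv2 or Tcrg-C2, after thinning, were 27.4% and 34.6% of low cells and 18.4% and 27.0% of graded cells.

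Of 2938 genes with at least 50 CPM over the low cells of both, 1 (0.034%) was at least 0.5 log2 higher in low DETCs of the anti-Skint1 library than of the isotype library and 10 (0.34%) were at least 0.5 log2 lower. These counts moved with the cells taken, to 18 and 30 with at most 5% mitochondrial UMIs, 2 and 30 with no upper limit on genes, and 111 and 161 without cells of at least 2 proliferation UMIs. The 12 genes of the sum were at 1802 and 1949 CPM by selection, and the median gene had a ratio of -0.04. The 5 marker genes lay between -0.03 (Adcy7) and 0.21 (Themis).

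By list, the medians between the libraries were small in low cells. The galectin, S100 and Ahr genes had a median of 0.13 in low and 0.08 in graded DETCs, with S100a6 at 6943 CPM in isotype and 8368 CPM in anti-Skint1 low cells and Lgals1 at 1723 and 2076 CPM. The 10 chaperone genes with enough counts had a median of -0.09 in low and -0.35 in graded cells, and 3 histone genes had 0.13 in low and -0.22 in graded cells.

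Xcl1, lymphotactin, a chemokine for cross-presenting dendritic cells, had the lowest ratio, although Gzmc lay below it under 3 alternatives. Xcl1 (ENSMUSG00000026573; GRCm38 chr1:164931644-164935527, minus strand) was at 366 CPM (347 to 386) in isotype and 42.1 CPM (36.7 to 48.1) in anti-Skint1 low DETCs, a log2 ratio of -3.12 (-3.33 to -2.91). It was lower in the anti-Skint1 library in each of the 4 bins of low cells, with 288, 284, 380 and 581 CPM against 41.1, 41.1, 55.9 and 27.6 CPM from the lowest bin up. Graded DETCs had 344 and 86.1 CPM, a ratio of -2.00, and the low over graded ratio was 0.09 (-0.02 to 0.19) in isotype and -1.03 (-1.27 to -0.80) in anti-Skint1 cells. The 10 cells with most Xcl1 held 55.9% and 32.1% of its UMIs in low cells, and without those and the 10 with most Gzmc in each class the ratio between the libraries was -2.37. The low over graded ratios of Xcl1 were then -0.51 and -1.15, and with at most 5% mitochondrial UMIs they were -0.97 and -1.41. The isotype ratio was -1.57 without cells of at least 2 proliferation UMIs and -0.25 without cells holding a UMI of the 5 mitosis genes.

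Gzmc was the only one of 6 cytotoxic granule genes to pass 0.5 log2 between the libraries, where 0.34% of all genes tested were lower. It was at 386 against 111 CPM in low DETCs (-1.80) and at 178 against 143 CPM in graded ones (-0.32). Its 4 bins of low cells had 412, 178, 759 and 205 CPM (isotype) against 48.0, 246, 116 and 8.03 CPM (anti-Skint1) from the lowest up, so that it was higher in the anti-Skint1 library at 0.1 to 0.2%. Without the 10 cells of most Xcl1 and the 10 of most Gzmc the ratio was -3.24, and over all alternatives it ranged from -3.74 to -1.202. Gzmb, granzyme B, missed the count minimum with 81.5 CPM in isotype and 13.3 CPM in anti-Skint1 low cells, and 77.7% of the isotype UMIs lay in 10 cells. Graded cells had 125 and 61.4 CPM of Gzmb, so that low over graded was -0.62 and -2.20.

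The costimulatory receptor 4-1BB, encoded by Tnfrsf9, was at 127 CPM (116 to 139) in isotype and 55.8 CPM (49.6 to 62.7) in anti-Skint1 low DETCs, a ratio of -1.19 (-1.40 to -0.97). In the cells as gated, its level changed little over the immediate early share. The 4 low bins had 115 to 138 CPM (isotype) and 48.6 to 69.0 CPM (anti-Skint1), and graded cells had 122 and 63.9 CPM. With at most 5% mitochondrial UMIs, the low over graded ratio of Tnfrsf9 was -0.29 in isotype and -0.63 (-1.01 to -0.25) in anti-Skint1 cells. Without cells of at least 2 proliferation UMIs the isotype ratio was -0.46. Ptpn6, the phosphatase SHP-1, was at 181 against 108 CPM (-0.74) in low and 161 against 81.1 CPM (-0.99) in graded DETCs; with at most 5% mitochondrial UMIs its ratio in low cells was -0.14 (-0.42 to 0.15).

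Ighm (-0.60), Golga4 (-0.59), Cep290 (-0.57), Bdp1 (-0.55) and Unc5b were among the rest of the 10, and in graded DETCs the ratios of the first 4 were -0.21, 0.04, -0.12 and 0.03. In the other direction, Orm2, an acute phase glycoprotein of the orosomucoid family, was at 59.8 CPM in isotype and 106 CPM in anti-Skint1 low cells (0.83, 0.60 to 1.06). Its bins had 51.8 to 76.5 CPM against 97.3 to 132 CPM, and some of their intervals overlapped. Hk2 (0.46), Trgv2 (0.44), Nrm (0.44), Cpne2 (0.43), Tcrg-C2 (0.43), Tuba1a (0.41) and Map1b (0.40) came next and did not pass 0.5 log2.

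**Figure D5:**
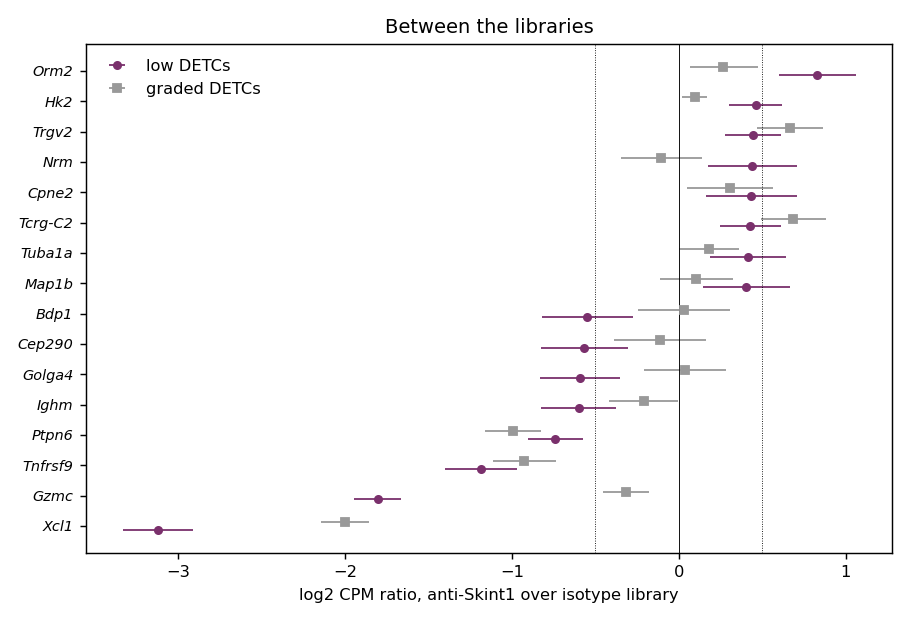
Log2 CPM ratio of the anti-Skint1 over the isotype library (x axis, with 95% exact conditional binomial intervals) in low and graded DETCs for the 16 genes (y axis) at the ends of the order in low cells; dotted lines mark 0.5 log2. Xcl1 lies at -3.12 and -2.00 in low and graded cells, Tnfrsf9 at -1.19 and -0.93, and Orm2 is the only gene past 0.5 log2 upwards in low cells.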

How the data were processed

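The authors counted UMIs per gene and barcode with Cell Ranger 3.0.2 (10x 3′ v3 chemistry, mm10 index), and the deposited values are raw counts for all 6794880 barcodes per library, with 27272211 UMIs in the isotype and 32450957 in the anti-Skint1 library. Barcodes were filtered and gated as stated above in Python 3.11.15 (numpy 2.4.6, scipy 1.17.1, pandas 2.3.3). Counts were summed per class and library. Genes were called past 0.5 log2 of CPM without a pseudocount. Scrublet (scanpy 1.11.5) marked 1 and 0 barcodes as doublets at its default threshold; the highest scores were therefore marked, 0.8% per 1000 barcodes (177 and 330), and were left out in 1 alternative only. Ratios and intervals were tried on counts simulated from the Poisson model that the intervals assume. That trial could not test spread between cells, which the intervals leave out. No test was made between single libraries. The members, gene lists and alternatives were chosen with earlier results of these data known. Named genes were the 5 markers, the 12 genes of the sum, list members, the 12 genes of highest and of lowest ratio nearest 0 over both libraries, the 8 at each end between the libraries and the 10 most variable; Gzmb, Klf2, S1pr1 and the 5 mitosis genes were picked after their values were seen. Not every gene that this rule takes is reported here.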

Additional observations from a re-analysis of the deposited data

Results flagged for a closer look

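Gzmc, granzyme C, had ratios of opposite sign in the libraries. In low over graded DETCs its log2 ratio was 1.11 in the isotype library and -0.37 in the anti-Skint1 library, and the difference between these ratios was not tested. Without the 10 cells of most Xcl1 and the 10 of most Gzmc in each class and library the values were 0.71 and -1.44, and with at most 5% mitochondrial UMIs they were 0.30 and -2.998. Without cells that held a Trgv2 or Tcrg-C2 UMI the anti-Skint1 value was 0.30.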

How the results depend on the processing

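In the text, 25.5% and 27.2% of gated DETCs were low, 15 genes were higher and 158 lower in low than graded cells, and 1 was higher and 10 lower in low cells of the anti-Skint1 library. The anti-Skint1 share was 29.6% with at most 5% mitochondrial UMIs and 28.9% with the share taken from thinned cells, and the other share values lay within the intervals above. Genes higher in low than graded cells numbered 25 with no upper limit on genes and also with each cell thinned to 2000 UMIs, 4 relative to the median gene, 68 against graded cells at 0.8 to 1.2%, and 79 without cells of at least 2 proliferation UMIs, a rule that left 155 and 248 low cells. With at least 20 CPM, 69 genes were higher and 256 lower, and with at least 100 CPM, 4 and 88.

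Between the libraries, genes higher and lower numbered 2 and 30 with no upper limit on genes, 18 and 30 with at most 5% mitochondrial UMIs, 4 and 24 with thinned cells, 7 and 75 with at least 20 CPM, 0 and 5 with at least 100 CPM, 111 and 161 without cells of at least 2 proliferation UMIs, and 5 and 17 without Trgv2 or Tcrg-C2 cells, an alternative chosen after seeing the data. Those higher numbered 2 with at least 3000 UMIs, 2 with the share from thinned cells, 2 relative to the median gene, 5 with at least 1 Trdv4 UMI, 4 with low cells at or below 0.3%, and 3 without cells of 5 mitosis genes, also added after seeing the data. Thinner or fewer cells give wider counting error; other causes were not tested. Areg between the libraries was at 0.16 without cells of proliferation UMIs, the only reversal of a named ratio past 0.5 log2. Of 1866 low over graded values of named genes under 18 alternatives 1572 stayed within the interval of the reported value, and between the libraries 770 of 881. Over all alternatives, Xcl1 between the libraries ranged from -3.60 to -2.10, Tnfrsf9 from -1.36 to -0.92, Orm2 from 0.51 to 1.13 and Ptpn6 from -1.07 to -0.14.

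Depth limits genes under 50 CPM, and 1 library per treatment leaves differences between mice, injections and runs unmeasured. No paired analysis was possible because each treatment has 1 library and the results come from no test.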
